A study of Mus musculus with 56 samples.

Results

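Livers that never carried miR-122 were compared with livers that lost it in adult life. The germline knockout group (miR-122-/-) held 3 mice, replicates A, B and C. The other group held 3 mice with loxP sites on both sides of miR-122 (floxed mice), taken 45 days after tail vein injection of an adeno-associated virus (rAAV8) that expresses Cre recombinase from the Ef1a promoter, which is active in most cell types. The labels give the strain background of both groups as 129Sv/J and the tissue as whole liver, and give neither age nor sex. No knockout mouse was injected, so lifelong loss of miR-122 goes together with the absence of virus and Cre, and with a different breeding line, and these cannot be told apart from it. Age is not known for either group, so a difference in age cannot be told apart from lifelong loss either. Polyadenylated RNA was sequenced and expression is given in FPKM (fragments scaled to transcript length and to library size, the latter here by a quartile of each library). Genes whose FPKM averaged 1 or more over the 6 libraries were compared, which were 11419 of the 21888 symbols in the table, and every fold is the knockout against day 45. The members closest to that limit were 2410076I21Rik at 1.00 FPKM inside it and Gm14326 at 0.9997 FPKM outside it. The 8 other RNA-seq libraries come from uninjected floxed mice (day 0, 3 mice), from day 21 (3 mice), and from days 100 and 200 (1 mouse each).

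miR-122 is the dominant microRNA of hepatocytes. Like other microRNAs it guides Argonaute proteins to matching sites in messenger RNAs, which lowers their stability and translation. Its absence is known to raise targets such as aldolase A, to lower blood cholesterol, and with age to lead to steatosis, inflammation, fibrosis and hepatocellular carcinoma. A germline knockout liver develops without the microRNA, whereas a floxed liver is built with it and loses it over weeks.

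In the separate small RNA libraries, miR-122 made up 59.2% to 73.3% of the listed microRNA reads in 3 uninjected floxed livers and 0.383% to 1.23% in 3 livers at day 45. The precursor's own row was at 0 FPKM in all 14 RNA-seq libraries, and no small RNA library of these knockout mice was used here, so the genotype of the knockout was not checked by its target.

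The sex of the mice could be read from the RNA. Xist, the transcript of the inactive X chromosome, lay at 41.2 and 56.7 FPKM in day 45 livers A and B and at 12.6 and 19.8 FPKM in knockout livers A and B, with the sum of 3 Y-linked genes at or under 0.061 FPKM. Livers C of both groups held 48.0 and 49.3 FPKM of these Y-linked genes and under 0.1 FPKM of Xist. Each group therefore held 2 females and 1 male, and the male was replicate C in both.

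Knockout liver C also stood apart from knockout livers A and B. Of the 11419 genes, 2718 (23.8%) differed in it by over 1 log2 unit from the mean of the other 2, against 816 in knockout liver A and 325 in knockout liver B. In the day 45 group these numbers were 215, 235 and 230. Sex moves with this library, and so does a trend over transcript length that is given further on, and their part in the difference was not tested. Many of the results below, but not all, are therefore also given for the females (livers A and B of each group) and for the male pair separately.

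By limma on log2(FPKM + 1), 63 genes differed between knockout and day 45 livers at a Benjamini-Hochberg adjusted p under 0.05. In the knockout 23 genes were higher (0.201% of the genes tested) and 40 were lower (0.350%). At an unadjusted p under 0.05, 307 genes were higher (2.69%) and 1864 were lower (16.3%). The 3 knockout libraries all lay above the 3 day 45 libraries for 398 genes (3.49%) and all below them for 2319 (20.3%). The median difference of all genes was −0.23 on the log2 scale, so a gene that kept pace with the rest lies at that value. With each library centred on its own median the calls became 36 higher and 28 lower, which moves the share of higher calls from 36.5% to 56.3%. With the females alone, 2 against 2, limma called 4975 genes (43.6%). All 63 genes were among them in the same direction, but they had been chosen on these same livers, so this supports nothing. Leaving out knockout liver C also gave many calls, 1498 higher and 3890 lower. Leaving out any other of the 6 livers left 4 to 9 higher and 3 to 7 lower.

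Over all genes tested, the 3 knockout livers lay above every one of the 11 floxed livers for 99 genes (0.867%) and below every one for 370 (3.24%). Of the called genes 20 of the 23 higher and 24 of the 40 lower did so, but these were chosen on 6 of the same libraries, so the counts describe the genes and support nothing. For the same reason the groups did not overlap for any of the 63 genes, and their female and male differences had the same sign. In a fit with the uninjected livers, day 45 livers had 2134 genes higher (18.7%) and 211 lower (1.85%) than day 0, and knockout livers had 1586 higher (13.9%) and 788 lower (6.90%). These 2 comparisons share the uninjected mice with each other and a group each with the main one, so they were not tested against each other, and values from them stand beside the others only as a description.

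**Figure D1:**
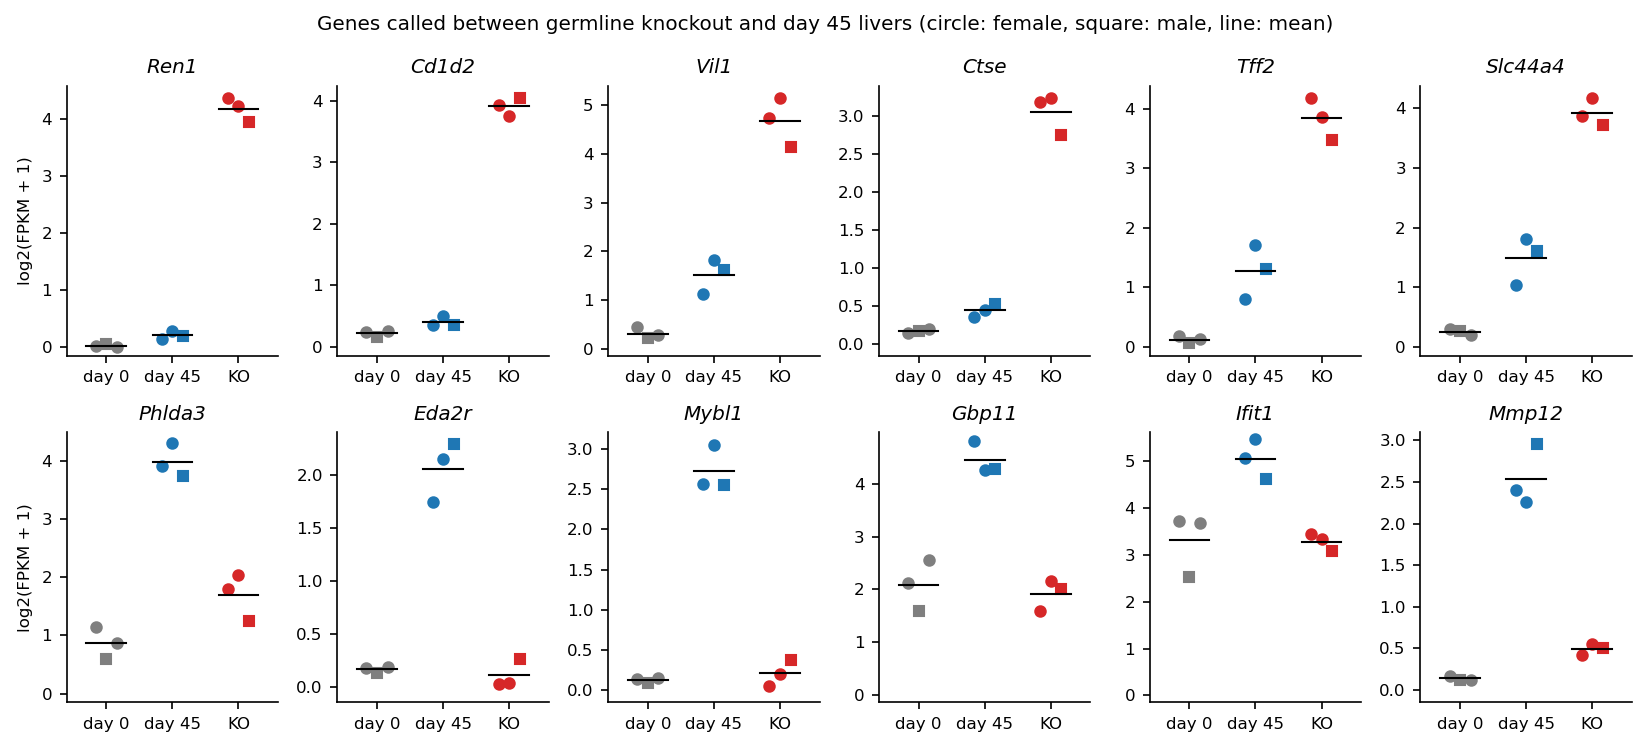
log2(FPKM + 1) of 12 genes called between knockout and day 45 livers, in uninjected (day 0), day 45 and knockout (KO) livers, with 1 point per mouse, circles for females, squares for males and a line at the mean. In the upper row the knockout livers lie above all others shown, and in the lower row the day 45 livers lie above both the uninjected and the knockout livers.

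A first group of genes was expressed in all 3 knockout livers and was nearly silent in every floxed liver, including those at days 100 and 200. Ren1, the gene of the protease renin (mm9 chr1:135247251-135256894), lay at 0.109, 0.222 and 0.145 FPKM at day 45 and at 19.7, 17.9 and 14.4 FPKM in the knockout. The difference was 3.97 ± 0.19 on the log2(FPKM + 1) scale (SE, n = 3 mice per group, limma adjusted p = 0.000269), and no floxed liver of any day exceeded 0.222 FPKM. Cd1d2, which encodes a molecule that presents lipid antigens (mm9 chr3:86790508-86793454), measured 0.283, 0.420 and 0.276 FPKM at day 45 and 14.3, 12.5 and 15.5 FPKM in the knockout. It differed by 3.51 ± 0.18 on the same scale (adjusted p = 0.000357). The groups stood far apart for both genes, and knockout liver C was not set off from A and B.

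H2-Bl, a gene of the major histocompatibility complex class I family (mm9 chr17:36217134-36221194), gave 0.576, 0.666 and 0.699 FPKM at day 45 against 11.96, 13.9 and 13.2 FPKM in the knockout. That is a log2(FPKM + 1) difference of 3.09 ± 0.17 (adjusted p = 0.000525), and the female and male differences were nearly equal at 3.10 and 3.06. Cathepsin E (Ctse), an intracellular aspartic protease, lay at 0.287, 0.368 and 0.442 FPKM at day 45 and at 8.06, 8.46 and 5.73 FPKM in the knockout, 2.61 ± 0.20 higher on the log2 scale (adjusted p = 0.00470). In all, 8 of the 23 higher genes stayed under 1 FPKM in all 11 floxed livers, and such genes passed the limit of 1 FPKM on the mean only through their knockout values. Besides these 4 they included Wdr72, Gm7455 and 2200002J24Rik, with knockout means from 2.27 to 9.67 FPKM. The uncharacterised 2210010C17Rik behaved alike at a somewhat higher level, with 1.10, 1.11 and 1.34 FPKM at day 45 and 26.9, 27.1 and 13.7 FPKM in the knockout (log2 difference 3.38 ± 0.28, adjusted p = 0.00613). Ren1, Cd1d2 and H2-Bl have close relatives in the mouse genome, and how the authors' software shared out their reads is not known, so the level of each is uncertain.

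Other higher genes were at a measurable level in day 45 livers and were higher still in the knockout. Villin (Vil1), which bundles the actin of microvilli (mm9 chr1:74455958-74482134), was at 0.156 to 0.352 FPKM at day 0, at 1.16, 2.55 and 2.08 FPKM at day 45 and at 25.8, 34.4 and 16.7 FPKM in the knockout. The knockout was 3.16 ± 0.31 higher than day 45 on the log2(FPKM + 1) scale (adjusted p = 0.0115). At days 100 and 200 Vil1 measured 7.92 and 6.86 FPKM, between the levels of day 45 and of the knockout.

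Trefoil factor 2 (Tff2), a peptide of gastric mucus, gave 0.750, 2.26 and 1.49 FPKM at day 45 and 17.0, 13.5 and 10.1 FPKM in the knockout (log2 difference 2.56 ± 0.29, adjusted p = 0.0211). Slc44a4, a choline transporter-like protein, gave 1.05, 2.51 and 2.04 FPKM against 13.7, 17.0 and 12.2 FPKM (2.44 ± 0.26, adjusted p = 0.0161). Both had been under 0.25 FPKM in every uninjected liver. The proton pump of the stomach, Atp4a, lay at 1.11, 1.71 and 1.58 FPKM at day 45 and 6.11, 8.65 and 6.70 FPKM in the knockout, a difference of 1.72 ± 0.21 on the log2 scale (adjusted p = 0.0234). Ladinin (Lad1), a protein of epithelial basement membranes, was at 4.65, 9.28 and 4.29 FPKM at day 45 and 32.8, 20.6 and 29.4 FPKM in the knockout (2.06 ± 0.31, adjusted p = 0.0475). Cox6b2, the testis form of a cytochrome c oxidase subunit, was at 2.03, 4.46 and 2.57 FPKM against 31.2, 16.7 and 21.2 FPKM (2.58 ± 0.31, adjusted p = 0.0228).

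Tmeff2, a membrane protein with EGF-like and follistatin-like domains, measured 0.181, 0.675 and 0.930 FPKM at day 45, 6.80 and 5.73 FPKM at days 100 and 200, and 8.91, 8.74 and 7.53 FPKM in the knockout. Its knockout difference from day 45 was 2.58 ± 0.23 on the log2 scale (adjusted p = 0.00743). The later floxed livers, 1 mouse per day, were thus much nearer to the knockout than the day 45 livers were.

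Serpina1a, which encodes a form of the protease inhibitor alpha-1-antitrypsin, was listed at 0 in all 3 day 45 livers and at 1897, 2036 and 1286 FPKM in the knockout. It was also at 0 in the day 0, day 21 and day 200 livers and at 987.3 FPKM at day 100, and its near-identical relative Serpina1c was at 3357 and 4281 FPKM in knockout livers A and B and at 0 in C. Albumin (Alb) was listed at 0 in all 14 livers, so a 0 for an abundant liver gene cannot be read as no RNA, and no fold is given. Of the other called genes, LOC624853 was at 160.9, 173.4 and 182.1 FPKM at day 45 and listed at 0 in the 3 knockout livers. The ribosomal protein gene Rpl29 fell from 104, 125 and 138 FPKM to 0.341, 0.281 and 0.135 FPKM (log2 difference −6.61 ± 0.19, adjusted p = 8.98e-06), with the lowest floxed liver at 47.5 FPKM. Atp6v0c, the proteolipid subunit of the vacuolar proton pump, fell from 14.2, 19.9 and 22.2 FPKM to 0.915, 1.10 and 0.043 FPKM (−3.59 ± 0.32, adjusted p = 0.00714). Rpl29 and Atp6v0c have processed copies elsewhere in the genome to which their reads may have been assigned, and their levels are uncertain.

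p53 (Trp53) is a transcription factor that responds to DNA damage and other stress by activating genes for growth arrest, repair and cell death. Of 17 such genes listed here, 16 were tested and 3 were called, all lower in the knockout. At an unadjusted p under 0.05, 10 of the 16 were lower and none was higher, against 16.3% and 2.69% of all genes. The median difference of the list was −0.83 on the log2 scale, beside −0.23 for all genes, and it was −0.79 in the females and −1.03 in the male pair.

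Phlda3, a p53-induced inhibitor of the kinase Akt (mm9 chr1:137662662-137665711), lay at 14.1, 18.7 and 12.3 FPKM at day 45 and at 2.48, 3.10 and 1.37 FPKM in the knockout. It differed by −2.29 ± 0.27 on the log2(FPKM + 1) scale (adjusted p = 0.0228). Uninjected livers had 1.21, 0.511 and 0.832 FPKM. Phlda3 thus stood 3.11 log2 units above day 0 at day 45 (adjusted p = 0.000959) and 0.82 above it in the knockout (adjusted p = 0.0466). It was chosen on the same day 45 and knockout livers, so these values only describe it. The receptor Eda2r, which binds ectodysplasin A2 (mm9 chrX:94529180-94572548), was at 2.35, 3.44 and 3.89 FPKM at day 45 and at 0.016, 0.024 and 0.195 FPKM in the knockout (−1.96 ± 0.21, adjusted p = 0.0161). Its uninjected level was 0.096 to 0.137 FPKM, close to that of the knockout. Eda2r passed the limit of 1 FPKM on the mean only through its day 45 values. The same holds for other called genes under 1 FPKM in every knockout liver, such as Mybl1, Mmp12, Clec2h and Pydc3. Aen, a nuclease that enhances apoptosis (mm9 chr7:86040813-86053719), was at 10.7, 8.58 and 9.15 FPKM at day 45 and at 1.87, 2.81 and 2.56 FPKM in the knockout (−1.62 ± 0.20, adjusted p = 0.0235), below the 3.79 to 4.54 FPKM of uninjected livers.

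Ccng1, cyclin G1, is known both as a p53 target and as a direct miR-122 target, and it was counted among the miR-122 targets and not among these 16 genes. It lay at 109, 91.6 and 90.7 FPKM at day 45 and at 8.27, 9.32 and 33.5 FPKM in the knockout, with 12.2 to 13.9 FPKM at day 0. Its log2 difference was −2.72 ± 0.48 (adjusted p = 0.0657), larger in the females (−3.37) than in the male pair (−1.41). Of the p53 list's members that missed the threshold, Mdm2, the ubiquitin ligase that degrades p53, was at 19.6, 19.8 and 23.3 FPKM against 4.57, 6.79 and 14.2 FPKM (adjusted p = 0.172). Cdkn1a, the cell cycle inhibitor p21, was at 44.8, 52.4 and 36.5 FPKM at day 45 and at 47.0, 47.2 and 10.1 FPKM in the knockout (−0.61 ± 0.56, adjusted p = 0.520), with 1.36 to 4.34 FPKM at day 0. The female knockout livers thus held as much Cdkn1a as day 45 livers, beside little Eda2r, Phlda3 or Ccng1. The most abundant members, Btg2 and Bax, had log2 differences of 0.25 ± 0.49 and −0.74 ± 0.30, and neither passed the threshold (adjusted p = 0.769 and 0.262).

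Aen is shown with its promoter, since it is the called p53 target with a p53 half-site near its start. The half-site, a partly degenerate motif of 10 bases named here without its letters, was searched on both strands in 32851 RefSeq promoters of 300 bases (GRCm38.p6, 250 bases before the start and 50 after it), and 8.36% of them held a match. Of the tested p53 targets 14 had a promoter, and 7 of these held a match in at least 1 of their promoters (Cdkn1a, Mdm2, Bax, Sesn1, Gtse1, Aen and Ckap2). Phlda3 and Eda2r held none in this window. The 8.36% counts single promoters and not genes, so it is not a like measure. The match of Aen begins 121 bases before the start of 1 of its 2 listed promoters (chr7:78895808-78896107, plus strand, capitals mark the match, which reads as a half-site on both strands):
Aen promoter: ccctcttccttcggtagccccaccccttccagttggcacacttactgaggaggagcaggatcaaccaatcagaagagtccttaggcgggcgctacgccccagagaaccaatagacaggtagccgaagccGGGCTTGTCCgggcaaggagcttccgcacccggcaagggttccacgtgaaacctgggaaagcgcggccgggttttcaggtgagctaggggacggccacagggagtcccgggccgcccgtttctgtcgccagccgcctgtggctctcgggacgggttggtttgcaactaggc

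Interferon-stimulated genes are induced through JAK-STAT signalling and act against viruses and other intracellular microbes. Of the 33 on the list all were tested, and 1 was called, Ifit1, lower in the knockout. At an unadjusted p under 0.05, 14 were lower and none was higher, beside 16.3% and 2.69% of all genes. The list's median was −0.66 on the log2 scale, −0.18 in the females and −1.23 in the male pair, beside −0.22 and −0.16 for all genes. With the transcript length trend removed, the female median was −0.43 beside −0.19 for all genes. Ifit1, an RNA-binding antiviral protein, was at 32.4, 43.1 and 23.5 FPKM at day 45 and at 9.80, 9.04 and 7.45 FPKM in the knockout (log2 difference −1.77 ± 0.26, adjusted p = 0.0424), against 12.2, 4.75 and 11.8 FPKM at day 0. The most abundant members, Bst2 and Lgals3bp, were not called.

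Other called genes of innate immunity were not on the list. The guanylate-binding proteins Gbp11 and Gbp10, GTPases induced by interferon, were at 27.4, 18.4 and 18.7 FPKM and at 10.8, 12.7 and 9.91 FPKM at day 45. In the knockout Gbp11 was at 2.02, 3.45 and 3.02 FPKM and Gbp10 at 2.97, 2.52 and 2.45 FPKM (log2 differences −2.55 ± 0.24 and −1.73 ± 0.19, adjusted p = 0.00971 and 0.0161). Ifi204, Pyhin1 and Pydc3, genes of the DNA-sensing PYHIN family that lie between positions 175560990 and 175697050 of mm9 chromosome 1, were lower in the knockout. Other tested genes of that family were not called, among them Aim2 (log2 difference −0.53 ± 0.19, adjusted p = 0.244) and Ifi202b, which had the opposite sign (1.67 ± 0.28, adjusted p = 0.0566). Ifi204 was at 7.76, 10.4 and 8.30 FPKM at day 45 and at 1.70, 1.94 and 1.31 FPKM in the knockout (−1.89 ± 0.20, adjusted p = 0.0161). Pyhin1 and Pydc3 had log2 differences of −1.50 ± 0.22 and −1.47 ± 0.19, and each of the 3 was lower in the knockout than in any of the 11 floxed livers. Caspase 4 (Casp4), which senses bacterial lipopolysaccharide, Cd274, the checkpoint ligand PD-L1, and Trim30d were lower by −1.33 ± 0.20, −1.26 ± 0.18 and −1.37 ± 0.19 (adjusted p = 0.0467, 0.0399 and 0.0412). For Gbp11, Gbp10, Ifit1, Casp4 and Cd274 the knockout values overlapped with the uninjected ones. These gene families have many similar members, so the split of reads among them is uncertain.

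The promoter of Ifit1 is shown because it holds the core of the interferon-stimulated response element (named here without its letters) at 2 places. Searched on both strands in the same 32851 promoters, this motif was found in 3.44%. Of the tested interferon-stimulated genes 26 had a promoter and 15 of these held a match, Rsad2, Ifit3 and Isg15 among them. In Ifit1 the matches, both on the minus strand and marked in capitals, begin 104 and 85 bases before the start (chr19:34640639-34640938, GRCm38.p6, plus strand):
Ifit1 promoter: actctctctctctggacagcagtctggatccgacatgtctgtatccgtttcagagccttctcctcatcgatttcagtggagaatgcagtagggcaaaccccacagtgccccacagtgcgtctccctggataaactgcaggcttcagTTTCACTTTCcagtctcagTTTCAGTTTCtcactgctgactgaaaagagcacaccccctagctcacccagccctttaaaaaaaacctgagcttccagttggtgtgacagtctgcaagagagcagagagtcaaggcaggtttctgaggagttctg

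Mmp12, the elastase of macrophages, was at 4.27, 3.78 and 6.74 FPKM at day 45, at 0.337, 0.461 and 0.417 FPKM in the knockout and at 0.088 to 0.124 FPKM at day 0 (log2 difference −2.05 ± 0.23, adjusted p = 0.0198). It was the only called gene both of the 39 collagen and matrix genes tested and of the 16 markers of recruited monocytes and lipid-associated macrophages. Of these 16 markers 3 were lower and none higher at an unadjusted p under 0.05, near the 16.3% of all genes, and their median was −0.29, with 0.13 in the females. Clec7a (dectin-1), a receptor for fungal glucans on myeloid cells, was at 13.7, 17.7 and 16.5 FPKM at day 45 and at 4.48, 2.32 and 4.34 FPKM in the knockout (−1.88 ± 0.25, adjusted p = 0.0329). Cathepsin C (Ctsc), which activates proteases of immune cells, fell below all 11 floxed livers, from 54.0, 49.7 and 48.2 FPKM at day 45 to 19.6, 17.6 and 24.6 FPKM (−1.27 ± 0.19, adjusted p = 0.0475).

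The list of 21 tested Kupffer cell and macrophage markers had no called gene, with 11 lower and 1 higher at an unadjusted p under 0.05, where all genes had 16.3% and 2.69%. Their median was −0.73, with −0.53 in the females and −1.45 in the male pair. The scavenger receptor Cd163 (13.3, 10.1 and 10.4 against 1.70, 1.74 and 4.08 FPKM, adjusted p = 0.0516), Marco (29.0, 54.6 and 64.3 against 14.9, 6.74 and 3.18 FPKM, adjusted p = 0.0863) and Vsig4 (92.1, 96.9 and 84.7 against 51.2, 34.7 and 29.3 FPKM, adjusted p = 0.0801) lay lower in every knockout liver. Cd74, the invariant chain of MHC class II and the most abundant of the list beside Lyz2, went the other way in the females only, with 1597 and 1733 FPKM in knockout livers A and B, 411 FPKM in C and 315, 513 and 423 FPKM at day 45. In bulk tissue, fewer cells of a type and less RNA per cell cannot be told apart.

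Among genes of growth and the cell cycle, 32 were tested and Pcna was called. Pcna, the sliding clamp of DNA polymerase and itself a p53-responsive gene, lay at 12.2, 14.3 and 14.4 FPKM at day 45 and at 4.71, 5.57 and 5.81 FPKM in the knockout (log2 difference −1.20 ± 0.18, adjusted p = 0.0475). The list had 14 members lower and none higher at an unadjusted p under 0.05 (all genes 16.3% and 2.69%). Its median was −0.57, with −0.35 in the females and −1.05 in the male pair, and the female fit called 7 of the 32 lower, where it called 3606 of the 11419 genes lower. The most abundant, Ccnd1 (cyclin D1), was at 221, 282 and 122 FPKM at day 45 and at 69.2, 76.7 and 70.1 FPKM in the knockout (adjusted p = 0.113), and Tk1 was not called either. Mybl1 (A-Myb), a transcription factor of dividing germ cells, was on no list. It lay at 4.90, 7.30 and 4.85 FPKM at day 45, at 0.041, 0.149 and 0.296 FPKM in the knockout and at 0.063 to 0.113 FPKM at day 0 (−2.51 ± 0.22, adjusted p = 0.00652). The chromatin protein Hmga1, high in fetal liver, fell from 6.41, 7.60 and 8.66 FPKM to 1.52, 0.952 and 0.529 FPKM (−2.12 ± 0.24, adjusted p = 0.0206), a gene with processed copies and therefore uncertain. Hjurp, the chaperone that places the centromere histone, went from 19.6, 20.8 and 20.1 FPKM to 8.31, 8.48 and 7.28 FPKM (−1.23 ± 0.17, adjusted p = 0.0374).

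Other called genes were expressed in every floxed liver and were low in the knockout alone. Sucnr1, the receptor for succinate, was at 22.4, 13.8 and 33.0 FPKM at day 45 and at 0.490, 0.359 and 2.93 FPKM in the knockout (log2 difference −3.51 ± 0.47, adjusted p = 0.0338). At day 0 it had been at 30.4, 36.8 and 32.2 FPKM. Neprilysin (Mme), a peptidase of the cell surface, went from 6.01, 7.99 and 5.36 FPKM to 0.316, 0.742 and 1.41 FPKM (−2.06 ± 0.27, adjusted p = 0.0328). The hepatic transporter Abcc6 went from 24.5, 24.9 and 25.9 FPKM to 8.42, 9.06 and 6.01 FPKM (−1.58 ± 0.20, adjusted p = 0.0276). Clec2h, a C-type lectin-like protein, was at 5.15, 4.48 and 13.3 FPKM at day 45 and at most 0.029 FPKM in the knockout (−2.95 ± 0.36, adjusted p = 0.0234).

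Rnps1, a protein of the exon junction complex, was steady at 4.00 to 6.33 FPKM over the 11 floxed livers and lay at 1.09, 1.32 and 0.794 FPKM in the knockout (log2 difference −1.55 ± 0.19, adjusted p = 0.0228). BC048546, an uncharacterised gene, went from 7.46, 5.14 and 6.21 FPKM at day 45 to 0.499, 0.414 and 0.410 FPKM (−2.32 ± 0.19, adjusted p = 0.00613), and Gm10319 from 8.04, 6.10 and 13.4 FPKM to 0.210, 0.164 and 1.18 FPKM (−2.75 ± 0.35, adjusted p = 0.0276). Each of these 3 was lower in the knockout than in any floxed liver. Exoc4, a subunit of the exocyst, differed from them, since it was high after Cre only, at 18.0, 19.2 and 14.3 FPKM at day 45, 3.47 to 6.90 FPKM at day 0 and 2.24, 3.26 and 5.71 FPKM in the knockout (−1.996 ± 0.29, adjusted p = 0.0434).

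Imprinted genes are expressed from only 1 parental copy, and many are silenced in liver after birth. H19, a noncoding RNA abundant in fetal liver, was at 392, 845 and 66.3 FPKM in day 45 livers A, B and C and at 3338, 4008 and 1727 FPKM in the knockout. Its neighbour Igf2, the fetal growth factor, was at 39.8, 255 and 3.66 FPKM and at 2073, 3169 and 469 FPKM. The groups did not overlap for either gene, and the male was the lowest of both groups. The log2 differences were 3.34 ± 0.87 for H19 and 5.32 ± 1.39 for Igf2, large but with a wide spread among mice, and neither passed the threshold (unadjusted p = 0.00577 and 0.00600, adjusted p = 0.160 and 0.164). At days 100 and 200 H19 reached 2539 and 2486 FPKM and Igf2 2932 and 2374 FPKM, levels within those of the knockout, from at most 2.03 FPKM in uninjected livers.

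Transcripts of the imprinted Dlk1-Dio3 region gave a different picture. This region carries a large cluster of microRNAs on its noncoding RNAs Meg3, Rian and Mirg. Meg3 was at 12.7, 89.4 and 61.3 FPKM at day 45 and at 48.1, 86.1 and 42.8 FPKM in the knockout, Rian at 12.01, 45.6 and 38.9 FPKM and at 11.2, 26.1 and 40.6 FPKM, and Mirg at 3.56, 12.4 and 8.45 FPKM and at 6.98, 7.40 and 9.19 FPKM. The groups overlapped for all 3, with log2 differences of 0.43 ± 0.68, −0.27 ± 0.60 and 0.08 ± 0.39 (adjusted p = 0.719, 0.797 and 0.914), whose signs change when single livers are left out. All 3 RNAs were under 0.4 FPKM in uninjected livers. The protein-coding genes of the region, Dlk1 and Dio3, had means of 0.795 and 0.107 FPKM over the 6 livers and were not tested.

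**Figure D2:**
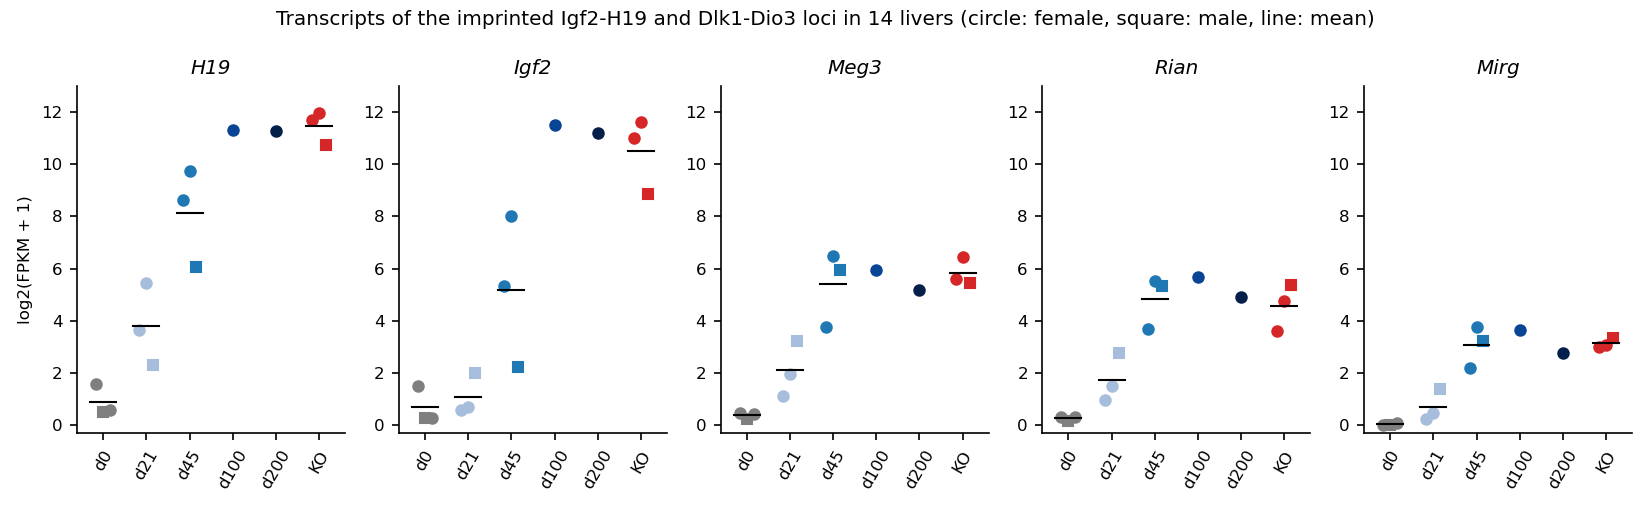
log2(FPKM + 1) of 5 imprinted transcripts in the 14 livers by group (d0 to d200 for days after Cre, KO for the knockout), circles for females, squares for males, and a line at the mean of groups of 3. H19 and Igf2 lie higher in the knockout than at day 45 and level with days 100 and 200, and Meg3, Rian and Mirg overlap between the knockout and day 45.

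H19 and Igf2 are also hosts of microRNAs, miR-675 in H19 and miR-483 in an intron of Igf2, and their mature sequences are given because these 2 host RNAs had the largest levels among the imprinted transcripts compared, and they hold 4 different seeds. The sequences are from RefSeq (GRCm38.p6, chromosome 7, minus strand), with bases 2 to 8, the seed that pairs with targets, in capitals:
mmu-miR-675-5p: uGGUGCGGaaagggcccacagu
mmu-miR-675-3p: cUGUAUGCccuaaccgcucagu
mmu-miR-483-5p: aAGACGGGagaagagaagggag
mmu-miR-483-3p: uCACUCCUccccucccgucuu
These hairpins lie at chr7:142577078-142577133 and chr7:142654932-142654989 from the first to the last mature base. The RNA-seq libraries measure the host RNAs and not these mature microRNAs.

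Direct targets of miR-122 were compared between mice labelled as knockouts and mice in which little of the microRNA was left at day 45. Of 27 published direct targets 26 were tested and none was called by limma in either direction, with none higher and 6 lower at an unadjusted p under 0.05, shares near the 2.69% and 16.3% of all genes. Their median difference was 0.02 on the log2 scale, beside −0.23 for all genes, with 0.14 in the females and −0.16 in the male pair. Against day 0 their median was 1.22 at day 45 and 0.98 in the knockout, with all genes at 0.21 and 0.04. The most abundant were Aldoa and Cs, and for citrate synthase (Cs), which feeds the citric acid cycle, the values were 128, 125 and 173 FPKM at day 45 and 85.7, 110 and 110 FPKM in the knockout (log2 difference −0.47 ± 0.22, adjusted p = 0.271). Gys1, muscle glycogen synthase, went in the other direction, with 2.60, 2.92 and 2.23 FPKM at day 45, 4.97, 4.23 and 3.05 FPKM in the knockout and 0.639 to 0.757 FPKM at day 0 (0.49 ± 0.21, adjusted p = 0.263).

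The 129 predicted miR-122 targets that accompany the study, all tested, gave no call, and 27 of them were lower and none higher at an unadjusted p under 0.05, a share near the 16.3% of all genes. Their median was −0.39 beside −0.23, with −0.51 in the females and −0.05 in the male pair. With the transcript length trend removed, the female median was −0.33 beside −0.19 for all genes. Msn (moesin), which links actin to the membrane, was low in both sexes, with 29.8, 40.7 and 32.1 FPKM at day 45 and 15.2, 17.9 and 14.2 FPKM in the knockout (−1.07 ± 0.20, adjusted p = 0.0773).

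NRF2 (Nfe2l2) induces enzymes of detoxification and glutathione synthesis, and of its 19 tested targets 9 were lower and none higher at an unadjusted p under 0.05, beside 16.3% and 2.69% of all genes, and none was called. The median was −1.02 on the log2 scale, −0.79 in the females and −1.60 in the male pair. Nqo1, a quinone reductase, was at 33.9, 55.6 and 33.3 FPKM at day 45, 15.9, 16.2 and 10.7 FPKM in the knockout and 4.05 to 10.0 FPKM at day 0 (−1.44 ± 0.27, adjusted p = 0.0790). The most abundant, Gstm1 and Cyp2a5, were not called, and in a fit of the females alone their log2 differences were 0.58 and 0.33.

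Acute phase genes are expressed by hepatocytes under inflammatory cytokines. Of the 28 tested, 8 were higher and none lower at an unadjusted p under 0.05, against 2.69% of all genes, and none was called. Their median was 0.47, and it was 0.62 in the females (0.26 with the length trend removed) and 0.47 in the male pair. Amyloid P component (Apcs) was at 118, 120 and 57.2 FPKM at day 45 and at 397, 364 and 302 FPKM in the knockout (log2 difference 1.91 ± 0.32, adjusted p = 0.0566), serum amyloid Saa1 at 323, 209 and 314 and at 659, 655 and 967 FPKM (1.43 ± 0.27, adjusted p = 0.0811), and lipocalin Lcn2 at 295, 534 and 146 and at 1937, 2098 and 536 FPKM (2.18 ± 0.65, adjusted p = 0.199). Immediate early genes, which respond within minutes to stimuli that include handling of tissue, had 4 of 19 higher and none lower at an unadjusted p under 0.05 and a median of 0.64. Of these Dusp1, a phosphatase of MAP kinases, was at 23.8, 29.7 and 34.1 FPKM at day 45 and at 55.0, 86.3 and 60.1 FPKM in the knockout (adjusted p = 0.104).

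Of 26 tested genes of bile acid handling none was called, and 8 were lower and none higher at an unadjusted p under 0.05, beside 16.3% and 2.69% of all genes. Their median was −0.64, with −0.80 in the females and −0.17 in the male pair, where all genes had −0.22 and −0.16. The uptake transporter Slco1a4 was at 28.5, 22.0 and 12.1 FPKM at day 45 and at 5.41, 4.90 and 5.17 FPKM in the knockout (log2 difference −1.75 ± 0.31, adjusted p = 0.0631). The bile salt export pump Abcb11 was at 132, 146 and 174 FPKM and at 59.96, 67.5 and 123 FPKM (−0.91 ± 0.30, adjusted p = 0.227), with 210 to 281 FPKM at day 0. Cyp7a1, the first enzyme of bile acid synthesis, spread so widely in both groups (133, 65.0 and 25.0 against 12.4, 21.6 and 37.0 FPKM) that the livers overlapped.

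Cytochrome P450 and phase 2 enzymes, which oxidise and conjugate drugs and steroids, had 54 members tested and 1 called. Cyp2c38 was at 19.5, 16.8 and 10.0 FPKM at day 45 and at 2.95, 0.836 and 1.96 FPKM in the knockout (log2 difference −2.52 ± 0.35, adjusted p = 0.0399), a member of a family with very similar genes and so uncertain. At an unadjusted p under 0.05, 13 of the list were lower and none was higher, beside 16.3% and 2.69% of all genes, and the list's median was −0.35 beside −0.23. In the females it was −0.64 beside −0.22 and in the male pair −0.15 beside −0.16. Mannose-binding lectin (Mbl2), a secreted hepatocyte protein of the complement system on no list here, was called lower, from 1499, 1283 and 1584 FPKM to 403, 425 and 219 FPKM (−2.11 ± 0.30, adjusted p = 0.0424). The mitochondrial pyruvate carrier Brp44l (Mpc1) went from 15.8, 10.5 and 9.79 FPKM to 2.02, 3.31 and 2.07 FPKM (−1.90 ± 0.25, adjusted p = 0.0329).

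Of the lipid genes none was called. The lists were cholesterol synthesis (25 tested, median −0.07), fatty acid synthesis (21 tested, median −0.37), lipoproteins (26 tested, median 0.19) and PPAR-alpha and fatty acid oxidation (31 tested, median −0.32). They had 1, 1, 3 and 0 members higher and 2, 5, 3 and 6 lower at an unadjusted p under 0.05, where 2.69% and 16.3% of all genes were. Their medians were 0.05, −0.35, 0.35 and −0.42 in the females and −0.15, −0.43, 0.02 and −0.08 in the male pair. With the length trend removed the female medians were 0.21, 0.09, 0.16 and −0.44, beside −0.19 for all genes. Urea cycle and amino acid genes had 4 of 28 higher, among them Gnmt, the glycine methyltransferase (1093, 1309 and 1294 against 3144, 2211 and 1753 FPKM, adjusted p = 0.212), and 2 lower. Eif4ebp3, a repressor of translation that is induced on fasting, was called higher, from 12.2, 12.1 and 10.5 FPKM to 28, 38.8 and 27.8 FPKM (log2 difference 1.36 ± 0.20, adjusted p = 0.0459), and its uninjected level was 16.2 to 29.6 FPKM.

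**Figure D3:**
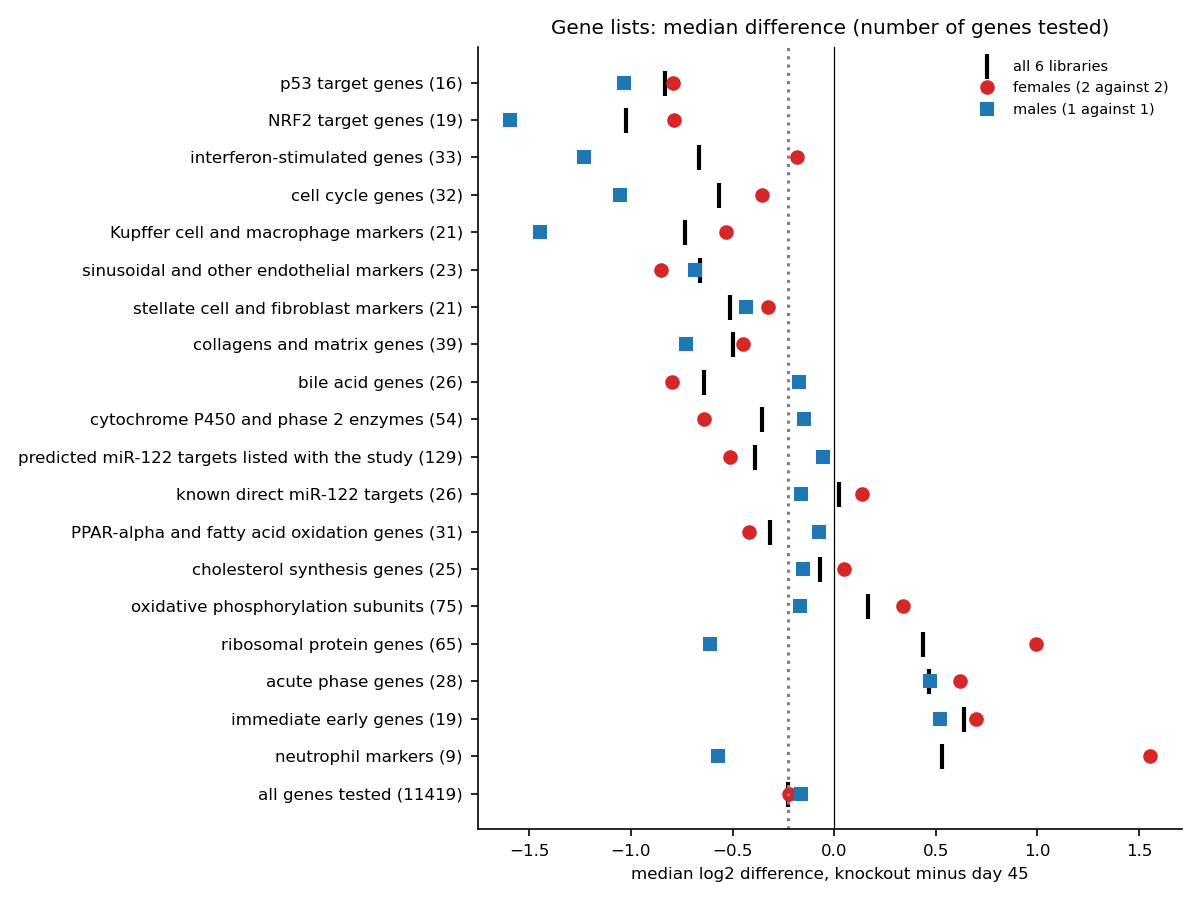
Median log2 difference, knockout minus day 45, of 19 gene lists and of all genes tested, with the number of genes tested in brackets, a black tick for all 6 libraries, a red circle for the females and a blue square for the male pair, and a dotted line at the median of all genes. The medians of p53 targets, NRF2 targets, Kupffer cell and endothelial markers lie to the left of the dotted line in both sexes, and ribosomal protein genes and neutrophil markers lie on opposite sides in females and males.

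Ribosomal protein genes and the subunits of oxidative phosphorylation are short, highly expressed transcripts of every cell, and their differences were not alike in the females and in the male pair. The 65 tested ribosomal protein genes had a median of 0.99 on the log2 scale in the females and of −0.61 in the male pair, with 0.44 over the 6 libraries. Their summed level was 11590 and 9868 FPKM in knockout livers A and B and 4476 FPKM in C, while the day 45 livers held 5478, 6047 and 6756 FPKM, so the male day 45 liver was not set apart in this direction. The 75 oxidative phosphorylation subunits had medians of 0.34 in the females and −0.17 in the male pair, the latter level with the −0.16 of all genes. Their median transcript lengths were 940.5 and 983 bases, beside 3016 for all genes.

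Over all genes, the difference between the groups moved with transcript length, taken as the longest annotated transcript of each gene. Of the genes tested 99.0% had a length, and they were cut into 5 groups of equal size. In the females the median difference went from 0.29 in the shortest group to −0.65 in the longest, and in the male pair from −0.27 to −0.04. Within the knockout group, livers A and B against C went from 0.49 to −0.47, whereas within the day 45 group the same went from −0.07 to 0.14. With a smooth length trend removed from each female library, the ribosomal protein median in the females was 0.39 and that of oxidative phosphorylation subunits −0.18, beside −0.19 for all genes. The part of this trend in the difference between knockout livers A and B and knockout liver C was not tested further.

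**Figure D4:**
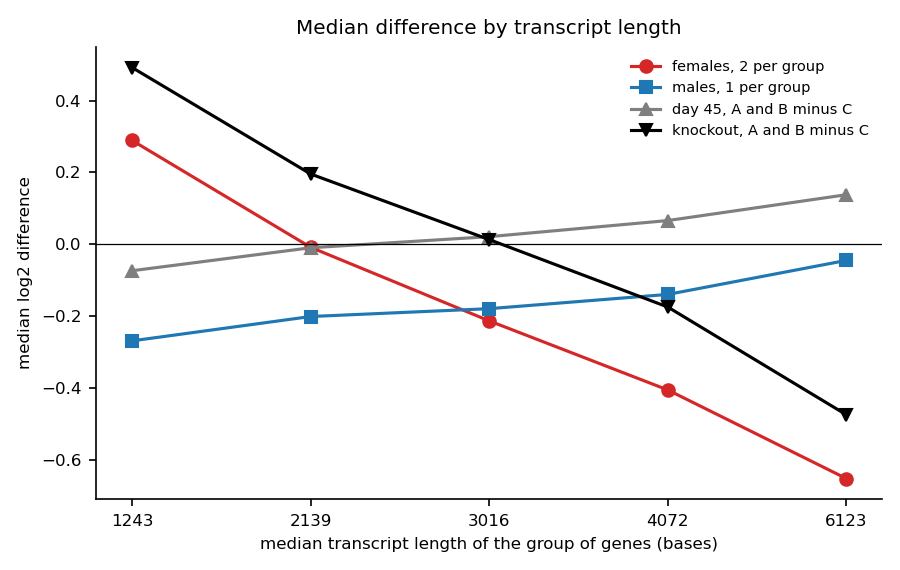
Median log2 difference of genes in 5 groups of transcript length, placed at the groups' median lengths in bases, for knockout minus day 45 in the females and in the males, and for livers A and B minus liver C within each group. The female line falls from 0.29 to −0.65 and the knockout line from 0.49 to −0.47, while the male line and the day 45 line rise slightly.

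Markers of cell types were compared since whole liver was sequenced. Of 22 hepatocyte markers 1 was called higher, where 0.201% of all genes were. It was Serpina1a, whose 0 values at day 45 cannot be read as no RNA. At an unadjusted p under 0.05, 2 of these markers were higher and 1 lower, beside 2.69% and 16.3% of all genes. Their median was 0.45, with 0.41 in the females (0.09 with the length trend removed) and 0.09 in the male pair. Of 23 sinusoidal and other endothelial markers none was called, and 15 were lower and none higher at an unadjusted p under 0.05, beside 16.3% and 2.69% of all genes. The median was −0.66 on the log2 scale, −0.85 in the females and −0.68 in the male pair. Clec4g, a lectin of sinusoidal endothelium and the most abundant of the list, was at 117, 99.3 and 116 FPKM at day 45, at 53.8, 40.4 and 35.5 FPKM in the knockout and at 65.6 to 98.8 FPKM at day 0 (−1.36 ± 0.22, adjusted p = 0.0545). Fcgr2b, the next, was at 51.7, 53.2 and 69.3 and at 30.4, 26.9 and 45.0 FPKM (adjusted p = 0.221). The summed level of the list was 479, 500 and 492 FPKM at day 45 and 297, 284 and 256 FPKM in the knockout, with 235, 314 and 389 FPKM at day 0.

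Of 21 stellate cell and fibroblast markers tested, 7 were lower and none higher at an unadjusted p under 0.05, beside 16.3% and 2.69% of all genes, with a median of −0.51. Of 39 collagens and matrix genes 8 were lower and none higher, a share near that of all genes, with a median of −0.50. Their median was −0.45 in the females and −0.73 in the male pair. With the length trend removed the female median was −0.10, beside −0.19 for all genes. Periostin (Postn), a matrix protein of injured tissue, was at 16.1, 22.4 and 15.9 FPKM at day 45, at 4.14, 2.64 and 6.30 FPKM in the knockout and at 3.42 to 6.49 FPKM at day 0 (log2 difference −1.88 ± 0.29, adjusted p = 0.0516). Of 7 B and plasma cell markers 5 were lower, and of 14 T and NK cell markers 2 were lower, the latter a share no larger than the 16.3% of all genes, and none of either was higher. Cholangiocyte and progenitor markers had 1 of 20 lower and 1 higher, with a median of 0.01, and stood 2.19 and 2.28 above day 0 at day 45 and in the knockout.

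Of 9 neutrophil markers tested none was called, and 3 were higher and none lower at an unadjusted p under 0.05 (all genes 2.69% and 16.3%). They had a median of 1.55 in the females, 0.68 with the length trend removed, and −0.57 in the male pair, and their summed level was 343, 609 and 236 FPKM at day 45 and 2123, 2256 and 570 FPKM in the knockout, most of it Lcn2, which hepatocytes also make. The sum was thus higher in each knockout female than in any day 45 liver, and knockout liver C lay within the day 45 range. S100a8, a calcium-binding protein of neutrophils, was at 21.0, 35.3 and 44.6 FPKM at day 45 and at 89.6, 75.0 and 14.9 FPKM in the knockout (adjusted p = 0.640). Of 8 erythroid markers none was called, and 2 were higher and none lower at an unadjusted p under 0.05 (all genes 2.69% and 16.3%). Their median was 1.22 in the females and 0.09 in the male pair. In the female fit 5 were called higher and 2 lower, where it called 1369 higher and 3606 lower of the 11419 genes. The hemoglobin gene Hba-a2, from red blood cells left in the tissue, was at 9.77, 2.89 and 10.8 FPKM at day 45 and at 235, 349 and 26.2 FPKM in the knockout (adjusted p = 0.128). Serpinb1a, which inhibits neutrophil proteases and is on no marker list, was called higher, from 2.04, 2.36 and 0.817 FPKM to 13.7, 10.4 and 12.3 FPKM (log2 difference 2.30 ± 0.27, adjusted p = 0.0228), with 6.84, 1.25 and 8.55 FPKM at day 0. The part of cell composition in these differences was not tested.

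The female and the male differences were set side by side for all genes. In the females 427 genes were over 1 log2 unit higher and 1847 over 1 lower in the knockout, and in the male pair 201 and 599. Both differences were over 1 for 73 genes and under −1 for 131, while 33 genes were over 1 in the females and under −1 in the male pair and 20 the reverse. Across the 11419 genes, which are not independent of each other, Pearson's r of the female with the male difference was 0.019. The 2 differences come from different mice, the male one from a single mouse per group, with no replicate, so sex and knockout liver C cannot be told apart.

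**Figure D5:**
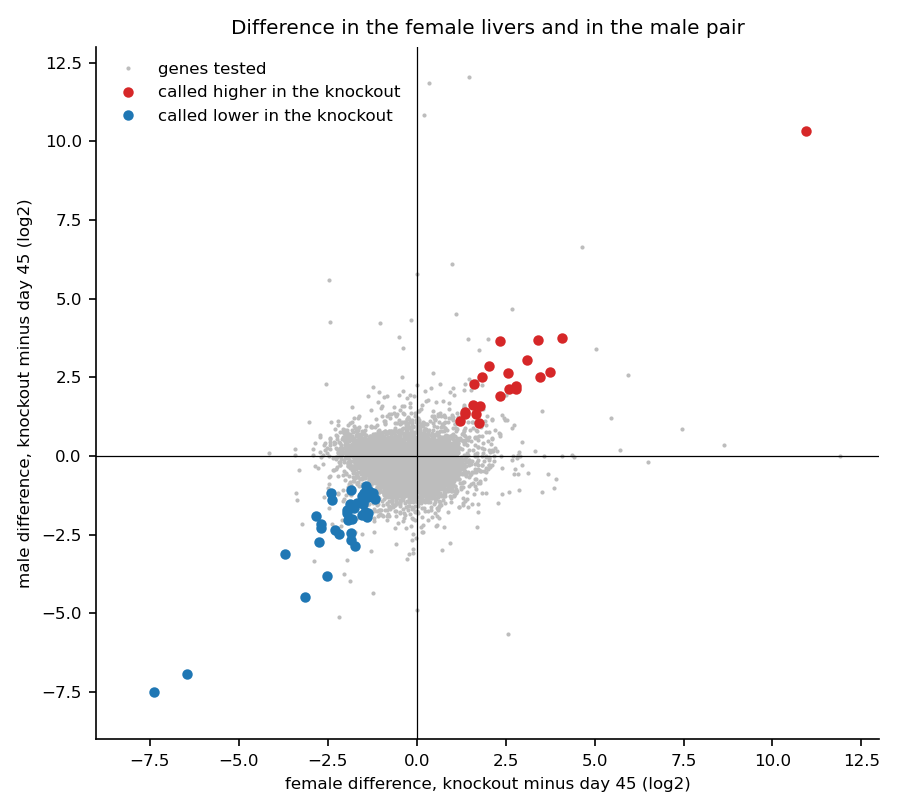
Each of the 11419 genes is a grey point at its log2 difference, knockout minus day 45, in the females (2 against 2, horizontal axis) and in the male pair (1 against 1, vertical axis), with the 23 genes called higher in red and the 40 called lower in blue. The called genes lie in the upper right and lower left, and the cloud of all genes has no slope (r = 0.019).

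Of the genes that the study names, none was called. Stag2, a cohesin subunit, differed in knockout livers A and B and not in C, at 13.2, 15.1 and 11.98 FPKM at day 45 and at 2.21, 2.83 and 14.2 FPKM in the knockout (log2 difference −1.33 ± 0.55, adjusted p = 0.262). Pdcd4, Srsf7, Nr6a1, Cux1 and Sox4 had log2 differences of −0.07 ± 0.31, −0.47 ± 0.25, −0.19 ± 0.19, 0.08 ± 0.19 and −0.86 ± 0.44 (adjusted p from 0.288 to 0.912). Nnt, the mitochondrial nicotinamide nucleotide transhydrogenase, which carries a deletion in C57BL/6J mice, was at 19.3, 19.4 and 17.9 FPKM at day 45 and at 11.7, 16.1 and 15.8 FPKM in the knockout (−0.37 ± 0.19, adjusted p = 0.297), so both groups express it.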

How the data were processed

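Livers of 3 miR-122 knockout mice and 3 floxed mice 45 days after Cre were compared, each library from 1 mouse. RNA-seq reads were mapped by the authors to mm9 with TopHat and deposited as FPKM from Cufflinks 2.2.1, with quartile normalization of libraries and with ribosomal, snoRNA and mitochondrial sequences removed. Small RNA reads were mapped by the authors with Bowtie 0.12.7 to miRBase and deposited as RPM with 1 added, which was subtracted. FPKM of rows with the same symbol were summed. limma 3.58.1 in R 4.3.3, with a mean-dependent trend, was run on log2(FPKM + 1) for the 11419 genes averaging 1 FPKM or more over both groups, with Benjamini-Hochberg adjustment at 0.05. The pseudocount understates changes of low genes. Read counts are not held by FPKM, so depth is unknown, and day 45 libraries had 15998 to 16363 symbols above 0 against 15371 to 15756 in the knockout. The fit was checked on simulated data. Named by rule were the 10 largest changes each way, up to 4 called genes and the 2 most abundant of each list (of the latter only some are described), the genes the study names and Nnt, and every other gene was picked with its values in view. The members and lists were chosen with earlier results of these data known. Sex is not in the labels and was read from the RNA. Transcript lengths are from the GENCODE annotation of the same build. Of the small RNA data 36 sample columns were not used. Replicate letters did not pair mice. Sequences are from RefSeq (GRCm38.p6), whose coordinates were not mixed with mm9, and figures were drawn with matplotlib 3.10.9. Some genes are not reported here.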

Additional observations from a re-analysis of the deposited data

How the results depend on the processing

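The number of called genes depended on the setting. Against 63 (23 higher, 40 lower), a minimum mean of 5 FPKM gave 19 (10 and 9), all 14 libraries 1088 (156 and 932), and array weights 7802 (2865 and 4937), with almost all weight on knockout liver B. Centring gave 36 higher. Settings added after seeing the data gave 128 (47 and 81) with sex as a covariate, 4975 (1369 and 3606) with females only, 101 (78 lower) with the length trend removed, 4048 (886 and 3162) with both, and 1887 (248 and 1639) with all 14 libraries and sex. Leaving out 1 library gave 7 to 5388 (4 to 1498 higher, 3 to 3890 lower), the highest without knockout liver C and 7 to 16 without any other. The cause of these changes was not tested.

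With the replicate letter as a block, 9 genes were called (4 higher, 5 lower), 8 of them among the 63. The letters name different mice and go with sex (A and B female, C male). Deviations of same-lettered livers from their group means correlated at −0.10, 0.31 and 0.04 for A, B and C. What else same-lettered livers share was not tested. For day 45 against day 0 (2345 genes), the count was 1160 at 5 FPKM, 1550 centred, 4838 with array weights and 895 to 4164 without 1 library. For the knockout against day 0 (2374 genes), it was 1496 at 5 FPKM, 3904 with 14 libraries, 9071 with array weights, 6197 with females only, 6354 with females and length, and 564 to 6901 without 1 library.

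Among the named genes that were followed across settings, none whose sign reversed had been called. With array weights Cdkn1a came to 0.12, Cux1 to −0.0083 and Cyp2a5 to 0.011 on the log2 scale, and with centring Nr6a1 came to 0.024 and Pdcd4 to 0.15. With females only Btg2 was −0.41, Cyp2a5 0.33 and Gstm1 0.58. With the length trend removed Mirg was −0.057, Nr6a1 0.057 and S100a8 −0.0090, and with females and length Btg2 was −0.43, Cyp2a5 0.13, Gstm1 0.17, Mirg −0.16 and Nr6a1 0.14. Without 1 library the values ran from −0.30 to 0.65 for Btg2, −0.96 to 0.10 for Cdkn1a, −0.011 to 0.15 for Cux1, −0.68 to 0.018 for Cyp2a5, −0.74 to 0.13 for Gstm1, −0.39 to 0.97 for Meg3, −0.36 to 0.42 for Mirg, −0.42 to 0.13 for Pdcd4, −0.85 to 0.22 for Rian and −0.29 to 0.61 for Tk1. Of the list medians under these settings, 688 moved by less than the spread between replicates and 89 by more. The number of mice, 3 per group, limits the precision.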
